A study of Mus musculus with 8 samples.

Results

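Genome-wide association studies in people have linked the risk of late-onset Alzheimer's disease to genes that act in endocytosis and in the innate immune response. The mouse counterparts of 10 such genes were examined here: Bin1, Picalm, Abca7, Cd2ap, Cd33, Sorl1, Inpp5d, Plcg2, Ptk2b and Cass4. All probes that the platform annotation pairs with 1 of these symbols were taken, which gave 13 of 32684 probes on the array. They cover 9 of the 10 genes. Sorl1 and Ptk2b had 2 probes each, Cass4 had 3, and the others had 1. No probe carried the symbol of Picalm, which encodes a clathrin assembly protein, so it has no values here. None of the 13 probes passed the test for a genotype difference.

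Samples were the subventricular zone of the lateral ventricle, dissected from 7-month-old female mice, with 4 samples of 3xTg genotype and 4 wild type (WT, the control strain). Both groups share a strain background, labelled as a cross of C57BL/6J (B6) females with 129S1/SvImJ (129S) males. 3xTg is a transgenic model of Alzheimer's disease that carries, among its alterations, human APP and MAPT transgenes expressed in neurons from Thy1 regulatory sequences. The labels call the samples biological replicates and do not say whether a sample is 1 mouse or a pool. The 8 samples lie on 4 two-colour arrays, each holding the 3xTg and WT samples of 1 replicate number, and an array is named here by that number. By the label field every 3xTg sample was in Cy5 and every WT sample in Cy3, so genotype and dye cannot be told apart. Values are log2 normalized intensities, and a difference is 3xTg minus WT within an array, averaged over the 4 arrays.

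These genes work at successive steps of how a brain cell takes in, sorts and reacts to material at its surface. Clathrin coats bend the membrane inward with the help of adaptors and membrane-curving proteins, and sorting receptors then send cargo such as the amyloid precursor protein back to the Golgi or on to endosomes and lysosomes. In microglia, the resident macrophages of the brain, receptors that signal through tyrosine-based motifs recruit kinases, phospholipases and phosphatases that start or damp phagocytosis. Adhesion kinases and their scaffolds connect integrins and calcium signals to the cytoskeleton.

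Across the array limma called 203 probes higher (0.621%) and 197 lower (0.603%) at an adjusted p under 0.05, which makes 1.22% of the 32684 tested. Of the 13 probes of the risk genes 0 passed, and adjusted p ran from 0.224 to 0.88. At an unadjusted p under 0.05, 1 of the 13 passed (limma), against 18.0% of all probes. The 2 genotype groups overlapped at each of the 13 probes, while they did not overlap at 4.53% of all probes. Sign was the same on all 4 arrays at 2 of the 13, once higher and once lower, against 25.4% of all probes. The median difference over the 13 probes was -0.06, beside 0.01 over all probes, with 4 above 0 and 9 below, while 52.2% of all probes were above 0. These counts take 3 genes more than once, and probes of a gene share the samples. With each gene read once, at its brightest probe on average, 4 of the 9 genes lay above 0 and 5 below. Their median was then -0.04, beside 0.01 over all named genes read the same way. The median size of the difference regardless of sign was 0.10, beside 0.13 over all probes.

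The 95% intervals of the 13 differences (limma, over 4 arrays) reached between 0.23 and 0.48 log2 units to either side. Of these intervals 12 included 0, and the exception was Bin1, whose interval is not adjusted for the number of probes. At 10 of the 13 probes the interval lay wholly between -0.5 and 0.5, and at all 13 it lay within 1 log2 unit of 0. The probes outside the narrower range were those of Bin1 and both of Ptk2b.

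**Figure D1:**
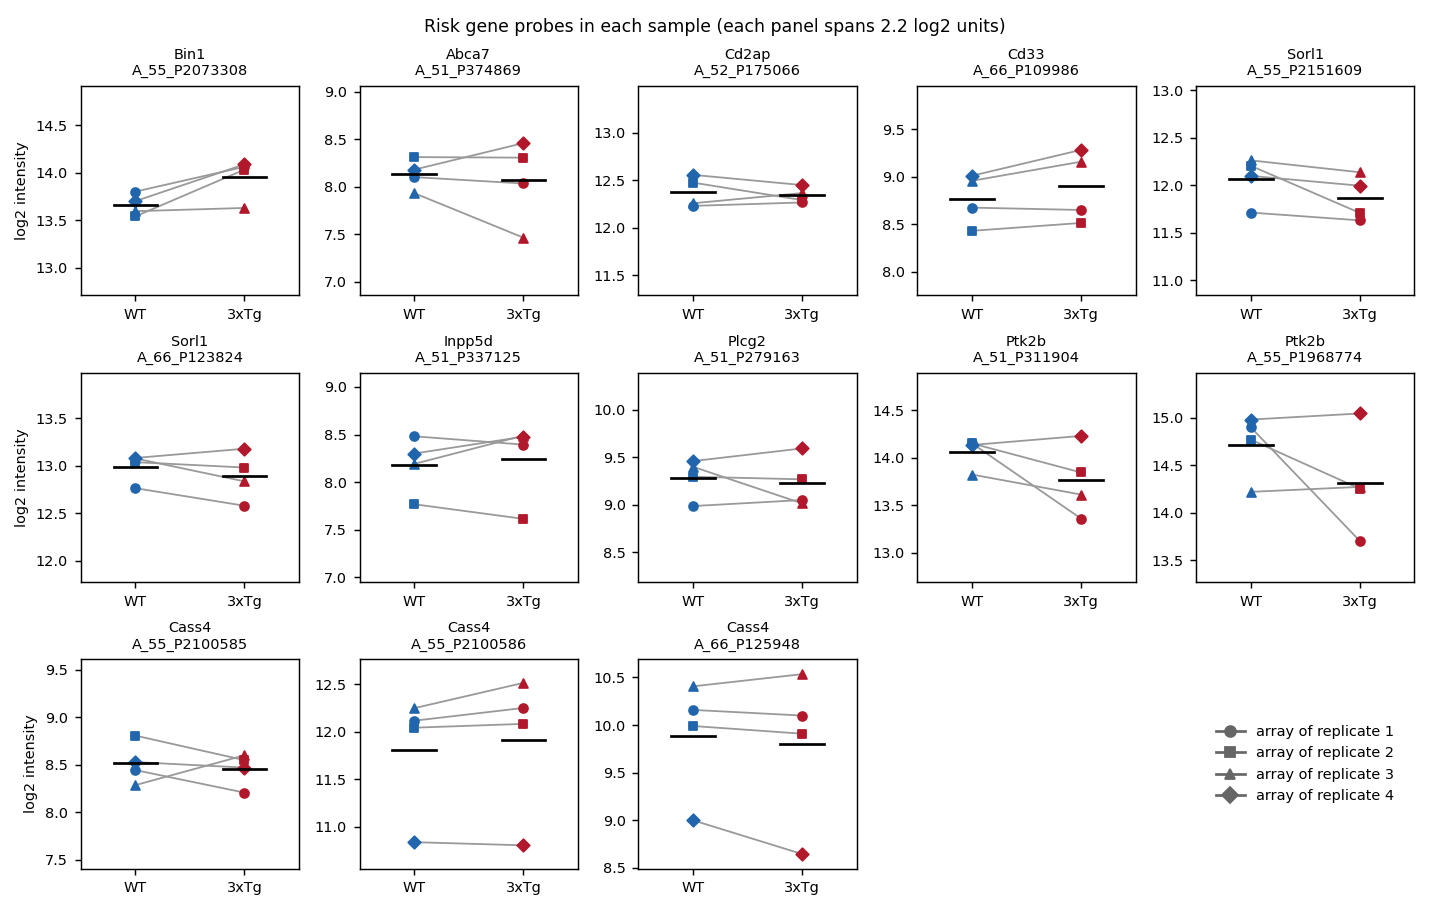
Log2 normalized intensity of each of the 13 probes in each sample, WT in blue and 3xTg in red, with a grey line joining the samples of 1 array and a black bar for the mean of each group (n = 4). The groups overlap in every panel, and at 2 Cass4 probes both samples of the array of replicate 4 lie apart from the other 6.

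Bin1 was the risk gene with the smallest p, and its probe was brighter in 3xTg on all 4 arrays. It encodes a BAR-domain protein that curves membranes and acts in endocytosis, and in the brain oligodendrocytes and neurons express it. The probe (A_55_P2073308) measured 14.06, 14.03, 13.63 and 14.09 in 3xTg replicates 1 to 4. In WT replicates 1 to 4 it measured 13.80, 13.54, 13.60 and 13.70. The 3xTg samples of replicates 1, 2 and 4 lay above every WT sample, while that of replicate 3 lay within the WT range, so the groups overlapped. The difference was 0.29 ± 0.11 (SE, n = 4 arrays; 1.23-fold) with a 95% interval of 0.04 to 0.55, and it did not pass over all probes (limma, adjusted p = 0.224). The array of replicate 3 gave the smallest of the 4 differences, at 0.03, and the others gave 0.26, 0.49 and 0.39 for replicates 1, 2 and 4.

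Markers of 2 glial cell types were measured beside Bin1. All 13 measured oligodendrocyte markers and 9 of 12 astrocyte markers lay above 0, with medians of 0.40 and 0.25, and 0 of either list passed (limma, adjusted over all probes; 5 and 6 at an unadjusted p under 0.05, in that order, and all of them higher). For this list and those below, the share of all named genes with an unadjusted p under 0.05 at their brightest probe was 18.1%. The level of the oligodendrocyte list, given as its mean over markers, ran from 12.58 to 13.18 in 3xTg and from 12.29 to 12.83 in WT. The mean of the astrocyte list ran from 12.49 to 13.01 in 3xTg and from 12.52 to 12.64 in WT. Per array the astrocyte medians were 0.30, 0.35, -0.05 and 0.17 for replicates 1 to 4, and the oligodendrocyte medians were -0.23, 0.63, 0.71 and 0.43. Like Bin1, the astrocyte list was lowest on the array of replicate 3, where the oligodendrocyte list was highest. Over the 8 samples, which share 4 arrays, Bin1 correlated with the mean of the astrocyte markers at r = 0.79. With that of the oligodendrocyte markers r was 0.63. Neuronal markers went the other way, at r = -0.595 for the striatal and -0.435 for the cortical and hippocampal list. With the microglial mean r was 0.026. The part of these markers in the Bin1 difference was not tested. In tissue samples of this kind, more cells of a type and more RNA per cell cannot be told apart.

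Sorl1, a sorting receptor that binds the amyloid precursor protein and works with retromer, was slightly dimmer on average in 3xTg at both of its probes, and neither passed. Its first probe (A_55_P2151609) measured 11.63, 11.71, 12.14 and 11.99 in 3xTg replicates 1 to 4 and 11.71, 12.20, 12.26 and 12.10 in WT. The 3xTg sample was the lower on each array, by 0.50 in replicate 2 and by between 0.08 and 0.13 in the others, while the groups overlapped. The average was -0.20 ± 0.11 (SE, n = 4 arrays), with a 95% interval of -0.45 to 0.05 (limma, adjusted p = 0.377). The second probe (A_66_P123824) measured 12.58, 12.98, 12.84 and 13.18 in 3xTg and 12.76, 13.04, 13.08 and 13.08 in WT, a difference of -0.10 ± 0.10 (SE, limma, adjusted p = 0.661). It was lower on 3 of 4 arrays and higher on that of replicate 4. Without replicate 2 the first probe was at -0.10, and without replicate 3 the second was at -0.05. Between the probes the correlation over the 8 samples was 0.65.

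Cd2ap encodes an adaptor that links membrane receptors and endocytic proteins to actin, and its probe gave the smallest difference of the 13. Levels (A_52_P175066) lay between 12.27 and 12.45 in 3xTg and between 12.23 and 12.56 in WT. The difference was -0.04 ± 0.10 (SE, n = 4 arrays), positive on 2 arrays and negative on 2, with a 95% interval of -0.27 to 0.19 (limma, adjusted p = 0.88). Abca7, an ATP-binding cassette transporter of phospholipids that is also linked to phagocytosis, differed by -0.07 ± 0.13 (SE), with an interval of -0.37 to 0.24 (A_51_P374869, adjusted p = 0.838). Its samples measured 8.03, 8.31, 7.46 and 8.46 in 3xTg and 8.10, 8.31, 7.93 and 8.18 in WT. The 3xTg group spanned both the lowest and the highest of the 8 values, and the difference turned from negative to 0.07 without replicate 3 (adjusted p = 0.788).

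Among the immune members, the 95% intervals of Cd33, Inpp5d and Plcg2 each included 0 and none passed. Cd33 is a sialic acid-binding receptor of myeloid cells, inhibitory in humans. Its probe (A_66_P109986) measured 8.65, 8.51, 9.16 and 9.28 in 3xTg replicates 1 to 4 and 8.68, 8.43, 8.96 and 9.01 in WT. In both genotypes the samples of replicates 3 and 4 lay above those of replicates 1 and 2. The difference was 0.13 ± 0.10 (SE, n = 4 arrays), higher on 3 of 4 arrays, with a 95% interval of -0.10 to 0.36 (limma, adjusted p = 0.52).

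Inpp5d encodes SHIP1, a lipid phosphatase of blood-derived cells and microglia that removes a phosphate from PIP3 and so damps signalling. Its probe (A_51_P337125) measured 8.39, 7.61, 8.49 and 8.48 in 3xTg replicates 1 to 4 and 8.48, 7.77, 8.19 and 8.30 in WT. Replicate 2 was the lowest in both genotypes. The difference was 0.06 ± 0.11 (SE, n = 4 arrays), positive on 2 arrays and negative on 2, with an interval of -0.20 to 0.32 (limma, adjusted p = 0.828). Plcg2, the phospholipase that turns signals of myeloid and B cell receptors into calcium release, differed by -0.05 ± 0.11 (SE), with an interval of -0.32 to 0.21 (A_51_P279163, adjusted p = 0.848). Its values lay between 9.01 and 9.59 in 3xTg and between 8.99 and 9.46 in WT, and the sign again split over the arrays, with 2 above 0 and 2 below. Without replicate 3 the Inpp5d difference became -0.02 and that of Plcg2 became 0.06 (adjusted p = 0.943 and 0.81).

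Microglial markers, measured beside these 3 genes, had 8 of 19 above 0, 11 below and a median of -0.03. Of the 19, 0 passed (limma, adjusted over all probes). At an unadjusted p under 0.05 there were 4, all lower. This is 21.1%, near the 18.1% of all named genes read at their brightest probe. Itgam, among the 8 above 0, was at the highest value of every sample and so gives no measured difference. Without it 7 of 18 lay above 0 and the median was -0.04. The mean of the microglial markers ran from 11.04 to 11.54 in 3xTg and from 11.19 to 11.44 in WT. Over the 8 samples Inpp5d correlated with the microglial mean at r = 0.76, Cd33 at 0.68 and Plcg2 at 0.35. These values were not particular to microglia. Inpp5d also correlated at 0.76 with the mean of endothelial and pericyte markers, and Plcg2 at 0.48 with that of cortical and hippocampal neuron markers. Markers of other myeloid cells and lymphocytes had a median of 0.08 over 13 genes with 0 passed and 0 at an unadjusted p under 0.05. Cd33 correlated with the mean of these other cells at r = -0.88, Plcg2 at -0.65 and Inpp5d at -0.52. Samples of 1 array share both its hybridization and its scan, and these coefficients are descriptions.

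Ptk2b had the largest average decrease of the 13 probes, at both of its probes, and neither passed. It encodes Pyk2, a calcium-activated tyrosine kinase of the focal adhesion kinase family that is abundant in forebrain neurons. The brighter probe (A_55_P1968774) measured 13.70, 14.25, 14.27 and 15.04 in 3xTg replicates 1 to 4. In WT replicates 1 to 4 it measured 14.90, 14.77, 14.22 and 14.98. The 3xTg samples of replicates 1 and 2 lay below their WT partners, those of replicates 3 and 4 slightly above, and the groups overlapped. The array differences were -1.20, -0.52, 0.05 and 0.06, and their average was -0.40 ± 0.21 (SE, n = 4 arrays; 1.32-fold lower), with a 95% interval of -0.88 to 0.08 (limma, adjusted p = 0.36).

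At the other Ptk2b probe (A_51_P311904) the samples measured 13.36, 13.85, 13.61 and 14.23 in 3xTg replicates 1 to 4 and 14.15, 14.15, 13.82 and 14.13 in WT. The 3xTg sample was the lower on 3 arrays, most of all in replicate 1, and the higher in replicate 4. Its average difference was -0.30 ± 0.15 (SE, limma, adjusted p = 0.328), from -0.79, -0.31, -0.21 and 0.10 on the 4 arrays. The probes tracked each other over the 8 samples (r = 0.96). Without replicate 1 the average was -0.14 at this probe and -0.13 at the brighter one. Without replicates 1 and 2, an alternative chosen after seeing the data, the average was -0.06 at this probe and 0.06 at the brighter one.

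Markers of striatal projection neurons, which lie next to this niche, had their lowest array medians on the same arrays as Ptk2b. All 12 measured markers lay below 0, with a median of -0.94, and 0 passed at their brightest probe (limma, adjusted over all probes; 9 at an unadjusted p under 0.05). Their medians were -2.06 and -1.65 on the arrays of replicates 1 and 2, and 0.31 and -0.30 on those of replicates 3 and 4. Arpp21, a striatal marker chosen after its values were seen, passed at another probe (A_55_P2016937), where it fell by 1.25 ± 0.18 (SE, limma, adjusted p = 0.0291) and was lower on all 4 arrays, with differences of -1.25, -1.90, -1.15 and -0.68 in replicates 1 to 4. The call was lost without replicate 1, 2 or 3 (limma, adjusted p = 0.0948, 0.151 and 0.0508) and without the array in the fit (0.102). It held without replicate 4 (0.0317). It also held with the array as a random block, other normalizations or moderation, or the dimmest probes left out (limma, adjusted p = 0.00428 to 0.0479). With single arrays left out the difference stayed between -1.43 and -1.03. The mean of the list ran from 12.30 to 14.07 in 3xTg and from 13.77 to 14.34 in WT. Over the 8 samples this mean correlated with Ptk2b at r = 0.79 for the brighter probe and 0.69 for the other. Array by array, cortical and hippocampal neuron markers had medians of -0.49, -0.72, -0.69 and 0.38, and their mean correlated with Ptk2b at 0.34 and 0.50. In that list 0 of 11 passed at the brightest probe (6 at an unadjusted p under 0.05), and Camk2a, also chosen after its values were seen, fell at another probe (A_55_P2149209) by 0.68 ± 0.11 (SE, limma, adjusted p = 0.0403). It was lower there on all 4 arrays, with 0.02 at its brightest probe. The Camk2a call was lost without replicate 1, 2 or 4 (limma, adjusted p = 0.134, 0.321 and 0.0871). It was also lost without the array in the fit (0.309) and under quantile normalization (0.0547). It held without replicate 3 (0.0462). It also held with the array as a random block, median centring, loess, other moderation or the dimmest probes left out (limma, adjusted p = 0.00808 to 0.0418). With single arrays left out the Camk2a difference stayed between -0.76 and -0.58. Lists of other cell types correlated with Ptk2b as well, given here for the brighter probe and then the other. With the microglial mean r was 0.61 and 0.50, and with the ependymal mean 0.558 and 0.435. With the mean of transit-amplifying cell and neuroblast markers it was -0.55 and -0.62. The part of any of these lists in the Ptk2b values was not tested.

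**Figure D2:**
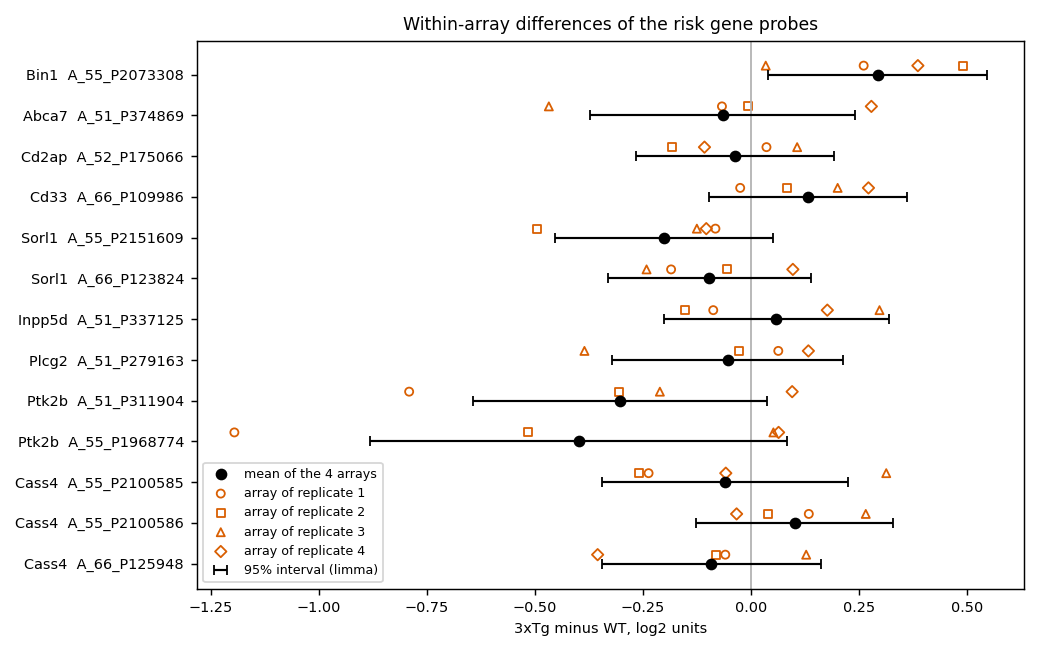
Difference in log2 units, 3xTg minus WT, at each of the 13 probes: filled points are the mean of the 4 arrays with its 95% interval from limma, and open symbols are the single arrays. Only the Bin1 interval lies above 0, and the 2 Ptk2b probes spread most between arrays, from -1.20 to 0.10.

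**Figure D3:**
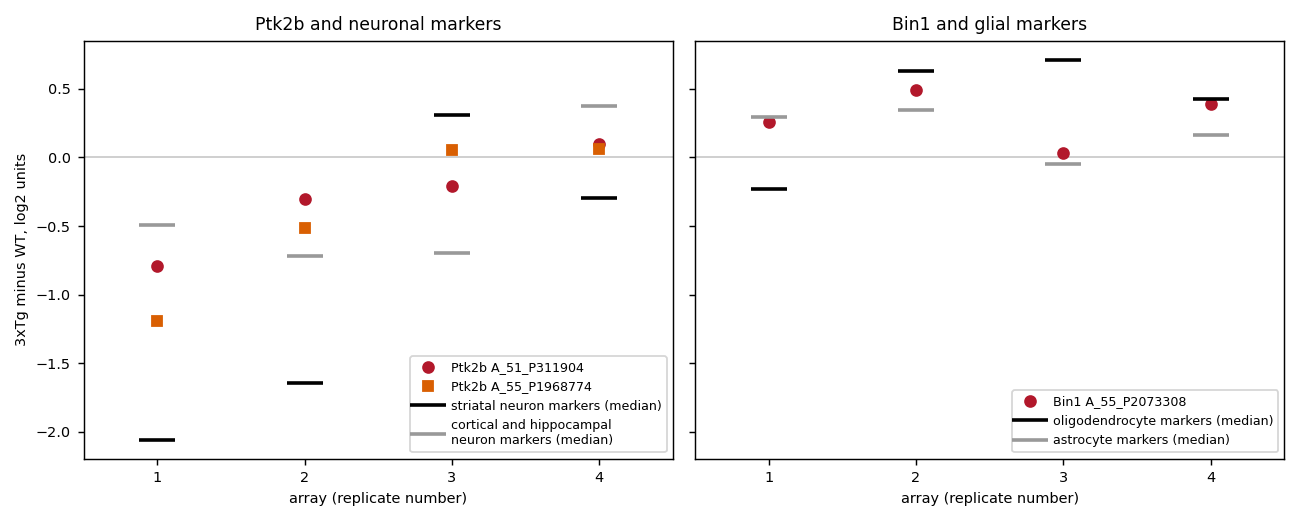
Difference in log2 units, 3xTg minus WT, on each array, for Ptk2b beside the medians of neuronal marker lists (left) and for Bin1 beside those of glial marker lists (right). Both Ptk2b probes and the striatal markers were lowest on the arrays of replicates 1 and 2, with striatal medians of -2.06 and -1.65, and Bin1 was lowest on that of replicate 3, at 0.03.

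Cass4, a scaffold of the Cas family that binds adhesion kinases, had 3 probes that did not vary together. At 2 of them both samples of the array of replicate 4 were low. The first of these (A_55_P2100586) measured 12.25, 12.08, 12.51 and 10.81 in 3xTg replicates 1 to 4 and 12.12, 12.04, 12.25 and 10.84 in WT. The second (A_66_P125948) measured 10.10, 9.91, 10.53 and 8.64 in 3xTg and 10.16, 9.99, 10.41 and 8.999 in WT. Replicate 4 stood apart in both genotypes by far more than the genotypes differed, and these probes correlated at r = 0.98 over the 8 samples. The mean of an array ranged over 1.56 and 1.65 log2 units at these probes, while the genotype difference on any array was at most 0.27 and 0.35 in size.

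The third Cass4 probe (A_55_P2100585) did not share this pattern. It measured 8.21, 8.55, 8.60 and 8.47 in 3xTg replicates 1 to 4 and 8.44, 8.81, 8.28 and 8.53 in WT, with replicate 4 in the middle of either group. It correlated at r = -0.09 and -0.10 with the other two. Genotype differences were 0.10 ± 0.10, -0.09 ± 0.11 and -0.06 ± 0.12 (SE, n = 4 arrays) for the probes in the order described (limma, adjusted p = 0.629, 0.702 and 0.839). For comparison, 100 of the 32684 probes had both samples of replicate 4 at least 1 log2 unit below the other 6 samples, and 1 of these is a Cass4 probe, A_55_P2100586. That pattern and its step were chosen after the values were seen. The annotation pairs A_66_P125948 with another transcript record than the other two probes, and which transcripts each probe binds was not analysed here.

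Over the 13 probes, the range of the 4 array means was set beside the range of the 4 genotype differences. The range of the differences measures how far the arrays disagreed on the genotype difference, not how large that difference was. The 2 ranges are on unlike scales, since a difference of 2 independent samples varies more than their mean does. At 6 of the 13 the means of the 4 arrays ranged more widely than the 4 genotype differences did, and these were the probes of Cd33, Inpp5d, both of Sorl1 and the Cass4 pair with low values in replicate 4. At the other 7 the differences ranged more widely. These counts describe the 13 probes only, with no share over all probes beside them. On the arrays of replicates 1 and 2, 4 and 3 of the 13 probes were higher in 3xTg, with medians of -0.07 and -0.08. On those of replicates 3 and 4, 8 and 8 were higher, with medians of 0.05 and 0.10. Over all probes the medians were 0.03, 0.01, 0 and 0.004 on the arrays of replicates 1 to 4. Read at 1 probe per gene, the brightest, the member medians were -0.02, -0.03, 0.05 and 0.13. The change of sign between arrays was not tested.

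The closest relatives of these genes were read at their brightest probe, and 0 of 22 measured passed (limma, adjusted over all probes; 2 at an unadjusted p under 0.05, beside 18.1% of all 21363 named genes read the same way). The median was 0.03, with 12 above 0. Bcar1, the founding Cas scaffold and a relative of Cass4, differed by 0.39 ± 0.10 (SE, higher on 4 of 4 arrays, limma, adjusted p = 0.105). Sort1, a sorting receptor of the same domain family as Sorl1, differed by -0.33 ± 0.14 (adjusted p = 0.289), in the direction of Sorl1. Abca4, of the same transporter family as Abca7, differed by 0.32 ± 0.12 (higher on 3 of 4 arrays, adjusted p = 0.233). Among other relatives, Amph, the amphiphysin related to Bin1, was at -0.14, Sh3kbp1, related to Cd2ap, at 0.05, and Inppl1, related to Inpp5d, at 0.21 (adjusted p = 0.687, 0.838 and 0.382). Plcg1 differed by -0.21 and Abca1 by 0.17 (adjusted p = 0.352 and 0.506).

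Other genes of the same pathways were counted at their brightest probe, where 120 of all named genes were higher and 133 lower, or 1.18% (limma, adjusted over all probes). Clathrin-mediated endocytosis had 0 of 40 past the threshold, with 15 above 0 and a median of -0.05. Itsn1, 1 of these 15, was at the highest value of every sample and gives no measured difference. In all, 9 (22.5%, beside 18.1% of all named genes) had an unadjusted p under 0.05, of which 3 were higher and 6 lower. The smallest p belonged to Eps15 (0.45 ± 0.11), a clathrin-coat scaffold, Rab5b (0.46 ± 0.12), a GTPase of early endosomes, and the dynamin Dnm3 (0.42 ± 0.12), with adjusted p of 0.0974, 0.119 and 0.157 (SE, limma). Hip1, which links clathrin to actin, was at -0.10 for its brightest probe (adjusted p = 0.699) and fell at the other (A_52_P11174) by 0.62 ± 0.10 (SE, n = 4 arrays, 1.54-fold, limma, adjusted p = 0.0346). At that probe it measured 9.97, 9.66, 10.46 and 10.11 in 3xTg replicates 1 to 4 and 10.47, 10.22, 11.11 and 10.90 in WT. The 3xTg sample was the lower on each array, while the groups overlapped. The call was lost when any single array was left out, with an adjusted p of 0.101, 0.297, 0.0585 and 0.0824 without replicates 1 to 4, and without the array in the fit (0.675). With single arrays left out the difference stayed between -0.66 and -0.57. The call held with the array as a random block, and under the other normalizations and moderation. It also held without the dimmest probes (limma, adjusted p = 0.0122 to 0.0445 over these alternatives). Hip1 was singled out after its values were seen.

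Endosomal sorting and retromer had 0 of 26 past the threshold, 18 below 0 and a median of -0.04, with 2 at an unadjusted p under 0.05, both lower (limma). Gga1 (-0.44 ± 0.13), an adaptor that binds sorting receptors of the Sorl1 family, and Hgs (-0.25 ± 0.09), which sorts ubiquitin-tagged cargo on endosomes, were lower on all 4 arrays (SE, limma, adjusted p = 0.163 and 0.226). Myeloid signalling through tyrosine-based motifs, the pathway in which Plcg2 and Inpp5d act, had 0 of 26 past the threshold, 15 above 0 and a median of 0.03, with 4 at an unadjusted p under 0.05, of which 3 were higher and 1 lower. The lower was Tyrobp, the adaptor that carries such a motif, at -0.24 ± 0.10 (SE, lower on 4 of 4 arrays, limma, adjusted p = 0.248), named after its value was seen. Of the higher, Pik3cg (0.37 ± 0.10) and Pik3cd (0.23 ± 0.09) are catalytic subunits of the kinase that makes the PIP3 on which Inpp5d acts, and Prkcd (0.84 ± 0.30) is a protein kinase C that neurons also express (SE, limma, adjusted p = 0.143, 0.245 and 0.213). Adhesion kinase signalling, where Ptk2b and Cass4 belong, had 0 of 18 past the threshold and a median of 0.04, with 2 at an unadjusted p under 0.05. Its smallest p values belonged to Tgfb1i1, a paxillin relative that binds Pyk2, at 0.84 ± 0.22, and to paxillin itself, Pxn, at -0.27 ± 0.11 (SE, limma, adjusted p = 0.12 and 0.246).

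Single genes whose levels ran most like those of each member were found over all named probes and the 8 samples, with each member read at its brightest probe. For Bin1 this was Myl7 (Pearson r = 0.96), for Abca7 Srsf11 (0.99), for Cd2ap Olfr1352 (0.94), for Cd33 C2cd2l (0.99) and for Sorl1 Nupr1 (0.99). For Inpp5d it was Pwwp3a (0.99), for Plcg2 Vmn2r20 (0.99), for Ptk2b Mapk4 (0.98) and for Cass4 Ager, the receptor for advanced glycation end products (0.997). With 8 samples such values were common: between 2 probes for Cd2ap and 747 for Cass4 lay above r = 0.9. These samples share 4 arrays.

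Markers of the dissected niche itself were measured too. The mean level of the transit-amplifying cell and neuroblast markers ran from 11.82 to 11.96 in 3xTg and from 11.76 to 11.92 in WT, and that of the ependymal markers from 10.28 to 11.12 and from 10.61 to 11.14. Transit-amplifying cell and neuroblast markers had a median of 0.09 over 12 genes and ependymal markers -0.04 over 12, with 0 past the threshold in either (limma, adjusted over all probes; 5 and 0 at an unadjusted p under 0.05). Endothelial and pericyte markers had a median of -0.08 over 13 genes with 0 past the threshold and 2 at an unadjusted p under 0.05. The files hold no detection call, so whether these or the risk genes were above background could not be assessed, and levels of different probes were not ranked. None of the 13 probes was at the highest value of any sample.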

How the data were processed

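RNA of 8 samples was measured on 4 two-colour Agilent-probe arrays. The authors deposited 1 log2 normalized intensity per probe and sample; limma was used per the submitters' processing notes. The sources used here give no background correction, normalization method or probe filter, and the scanner files were not analysed here. Probes were named through the platform annotation (29769 with 1 symbol, 2915 with none or several).

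The values were fitted with limma 3.58.1 (R 4.3.3, statmod 1.5.0): genotype with each array as a fixed block, default moderation, Benjamini-Hochberg adjustment over all 32684 probes, threshold 0.05, two-sided. The pairing comes from the labels, which give both samples of a replicate number 1 scanner file. Deviations from group means correlated at 0.78, 0.78, 0.54 and 0.82 within arrays 1 to 4, and at most at 0.18 between arrays. The fit was tested on simulated data. The labels call the replicates biological without naming animals, so p-values measure the spread between these samples.

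The members and gene lists were chosen with earlier results of these data known. Lists were read at each gene's brightest probe on average. Every member probe is named, relatives where set beside a member, up to 3 genes of smallest p in each pathway list, and 1 most alike gene per member. Intervals are 95%. Alternatives covered the block, normalization, moderation, dim probes, averaged probes and each array left out; precision is limited by 4 arrays.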

Additional observations from a re-analysis of the deposited data

Results flagged for a closer look

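Of 26 sets of 4 samples (13 probes, 2 genotypes), 5 had 1 sample far from the other 3. Chance gives about 1 in 20 for unrelated sets. These sets share 4 arrays and some share a gene, so that rate does not apply to them. They were judged by the gap to the nearest sample over the whole range. At Bin1 the 3xTg sample of replicate 3 measured 13.63, with the others between 14.03 and 14.09. At Sorl1 (A_66_P123824) the WT sample of replicate 1 measured 12.76, with the others between 13.04 and 13.08. Inpp5d in 3xTg replicate 2 measured 7.61, with the others between 8.39 and 8.49, and the WT sample of that array was low as well, at 7.77. Ptk2b (A_51_P311904) in WT replicate 3 measured 13.82, with the others between 14.13 and 14.15. Cass4 (A_55_P2100586) in WT replicate 4 measured 10.84, with the others between 12.04 and 12.25, beside 10.81 for the 3xTg sample of the same array.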

How the results depend on the processing

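The number of risk gene probes that passed was 0 under every alternative run. With no replicate block, 47 probes of the array were higher and 31 lower, and 0 of the 13 passed (0 also at an unadjusted p under 0.05). As a random block the array gave 551 higher and 758 lower, quantile normalization 132 and 115, trend and robust moderation 405 and 500, and averaged probes of a gene 119 and 128. Leaving out each array in turn gave 12 to 185 higher and 19 to 229 lower. Without replicates 1 and 2 together, chosen after seeing the data, 101 were higher and 60 lower. Reversed signs occurred at 6 of the 13 probes, none of them past the threshold: without replicate 2, Cd2ap (0.012) and Cass4 A_55_P2100585 (0.0060); without replicate 3, Abca7 (0.069), Inpp5d (-0.021) and Plcg2 (0.056); without replicates 1 and 2, Ptk2b A_55_P1968774 (0.058) and Cass4 A_55_P2100585 (0.13). With each array left out in turn, Abca7 ran from -0.18 to 0.069, Cd2ap from -0.085 to 0.012, Inpp5d from -0.021 to 0.13, Plcg2 from -0.12 to 0.056 and Cass4 A_55_P2100585 from -0.18 to 0.0060. The other probes kept their sign when single arrays were left out. Ptk2b then ran from -0.55 to -0.13 (A_55_P1968774, reversed only without replicates 1 and 2 together) and from -0.44 to -0.14. Sorl1 ran from -0.24 to -0.10 (A_55_P2151609) and from -0.16 to -0.05, and Cd33 from 0.09 to 0.19. Cass4 ran from 0.05 to 0.15 (A_55_P2100586) and from -0.17 to -0.0041. The cause of these changes was not tested. Bin1 lay between 0.21 and 0.38 over its 13 alternatives (adjusted p = 0.131 to 0.959). Leaving out the dimmest 25% of probes removed 3 of the 13, those of Abca7 and Inpp5d and the dimmest of Cass4. In the gene lists, which had 0 past the threshold at the brightest probe, at most 2 genes of a list passed under any alternative. With 4 arrays, small differences are limited by their intervals, and no signal over background was available.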
